A study of Mus musculus with 20 samples.

Results

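The genes described here encode the proteins of glycolysis and of glycogen storage in the mouse heart. They are 38 genes, named by symbol in a list and matched to the Ensembl identifiers of the count table through GENCODE vM21. All 38 were found among the 55335 identifiers of the table; the rule is by name and uses no measured value, although the list was drawn up with earlier results of these data known. Counts were high enough in 37 of them for a test, out of 14878 genes tested in all. The gene left untested was Aldoc, an aldolase of brain, with 0 to 8 counts in any library.

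Glycolysis splits glucose into pyruvate in the cytosol, and lactate dehydrogenase interconverts pyruvate and lactate. Glycogen is the store from which glycogen phosphorylase releases glucose units. In muscle, beta-adrenergic signalling through cyclic AMP and protein kinase A activates phosphorylase kinase, which phosphorylates and so activates phosphorylase. The adult heart draws most of its energy from fatty acids, and a larger part from glucose is a known feature of hypertrophied hearts.

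RNA was taken from small aliquots of powdered whole hearts of C57BL/6N mice, 3 to 5 months of age and fed NIH-31 diet, which were either wild type (WT) or OGFOD1-KO (KO). OGFOD1 is a prolyl hydroxylase of a ribosomal protein, and how the deletion was made is not given in the sources used here. Osmotic minipumps delivered for 2 weeks either vehicle, which was PBS with sodium ascorbate, or isoproterenol in the same solution. Isoproterenol is a beta-adrenergic agonist used to induce cardiac hypertrophy, and the dose is not given in the sources used here. The 4 groups, WT vehicle, WT isoproterenol, KO vehicle and KO isoproterenol, held 5 libraries each. Whether every library stands for a separate mouse is not said in the labels, and the tests can speak only of the spread among libraries, which may be technical.

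Total counts ran from 14609808 to 43671055 per library. The 38 genes took 1.3% to 1.61% of the counts outside the mitochondrial genome. Levels are given in CPM, counts scaled to a common library total, after TMM scaling, which evens out library composition, and a gene passed at an adjusted p under 0.05 in edgeR's quasi-likelihood test over all genes. Ogfod1 itself measured 16.9 to 21.8 CPM in the WT libraries and 2.39 to 4.13 CPM in the KO libraries. Of the cardiomyocyte markers all 7 were tested, and no list of cell type markers had a gene at 0 in all libraries. Of the skeletal muscle markers, Myh1, Myh2, Myh4, Mylpf and Atp2a1 fell below the filter.

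The libraries of a group differed in these genes. WT vehicle replicate 2 was the lowest of its group for 18 of the 37 genes, with a median log2 difference from the rest of its group of -0.14. KO isoproterenol replicate 5 was the lowest of its group for 27 of the 37 genes, with a median difference of -0.23. WT isoproterenol replicate 5 was the highest of its group for 21 of the 37 genes, with a median difference of 0.15, and the other libraries lay between -0.12 and 0.1. In KO isoproterenol replicate 5 the 9 smooth muscle and pericyte markers summed to 1774 CPM, against 767 to 808 CPM in the other libraries of its group, and the 7 cardiomyocyte markers summed to 19407 CPM, against 23692 to 25767 CPM. Their part in the values of this library was not tested.

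Levels between genes can be compared only per length, here as CPM per kb of merged exons, a length that understates genes with long annotated extensions. In vehicle-treated WT hearts the most abundant was Aldoa, the muscle aldolase, at 357 ± 30 CPM per kb (SD, n = 5). Next came Ldhb, the heart subunit of lactate dehydrogenase, at 241 ± 31.8, Pgam2, the muscle phosphoglycerate mutase, at 215 ± 18.8, Eno3, the muscle enolase, at 189 ± 18.5, and Pygm, the muscle glycogen phosphorylase, at 167 ± 11.7 CPM per kb. The ranges of Ldhb and Pgam2 overlapped, as did those of Pgam2 and Eno3 and those of Eno3 and Pygm, while the lowest Aldoa library, at 306 CPM per kb, lay above every Ldhb library, whose highest was 297 CPM per kb. At the other end stood Phkg1 and Phkg2, catalytic subunits of phosphorylase kinase, at 2.04 ± 0.254 and 1.23 ± 0.0384, Pfkfb3 at 1.17 ± 0.153 and Pygl, the liver phosphorylase, at 0.412 ± 0.0409 CPM per kb. Aldoa lay above 99.7% of all tested genes, and Pygl above 18.8%.

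**Figure D1:**
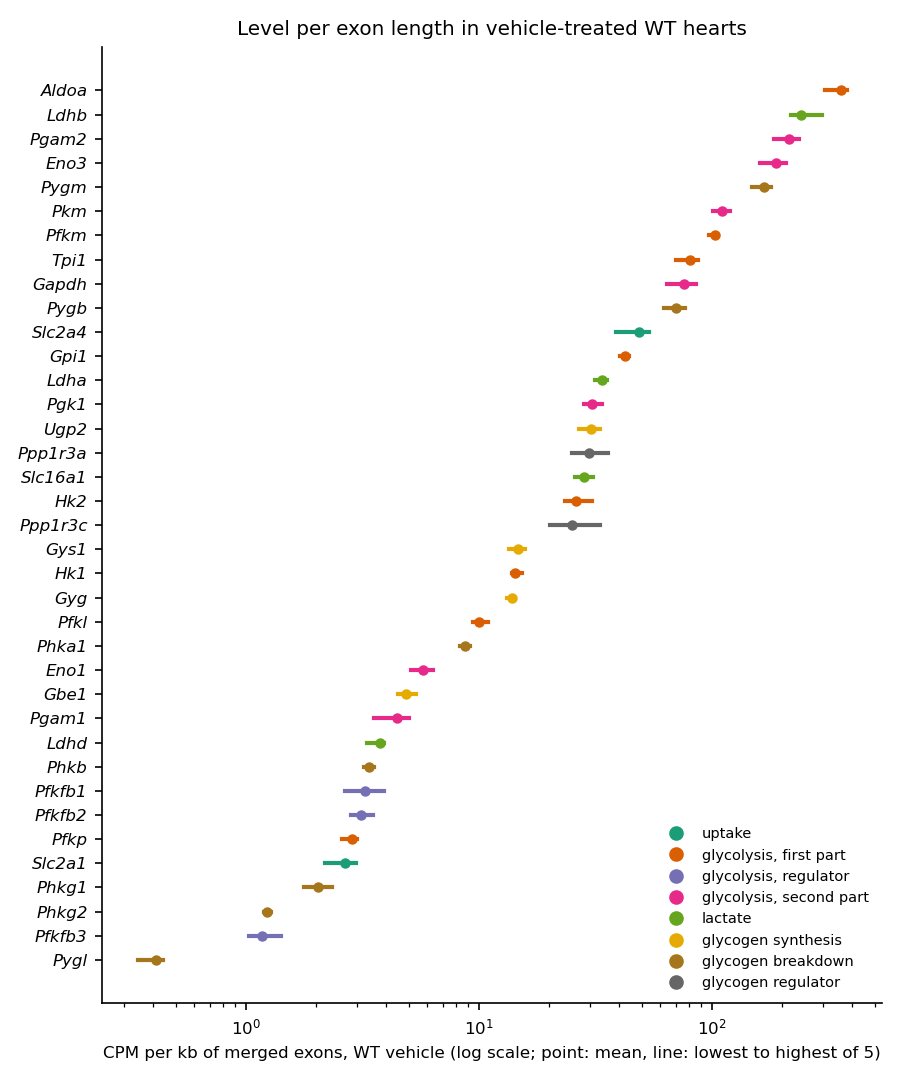
Level of each of the 37 tested genes in the 5 vehicle-treated WT libraries, as CPM per kb of merged exons on a log axis; points are means, lines run from the lowest to the highest library, and colours mark the step. Aldoa, at 357 CPM per kb, is at the top and Pygl, at 0.412 CPM per kb, at the bottom.

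After isoproterenol some genes of the pathway rose and others fell. In WT hearts 3 of the 37 genes rose and 3 fell, which is 16.2% of them against 8.76% of all tested genes, of which 4.64% rose and 4.12% fell. In KO hearts 3 rose and 6 fell, 24.3% against 9.03% of all tested genes, of which 4.75% rose and 4.29% fell. At an unadjusted p under 0.05 there were 12 of the 37 in WT and 17 in KO, beside 23% and 23.1% of all tested genes. Their median log2 fold change was 0.03 in WT and -0.08 in KO, beside 0 and 0.01 over all tested genes. Of the genes called, 5 passed in both genotypes in the same direction: Phkg1 and Phka1 rose, and Hk2, Ldhb and Ldhd fell. The others were Ldha, which passed in WT, and Slc2a1, Pfkm, Pfkfb2 and Pgam2, which passed in KO. The remaining 27 passed in neither.

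The count of genes that fell in WT depends on the fit: it was 5 with DESeq2 and 6 with 2 surrogate variables or without KO isoproterenol replicate 5 and WT vehicle replicate 2, and 5 without WT isoproterenol replicate 5. The share of all tested genes that fell was not computed for these other fits. Averaged over both genotypes, with 10 libraries on each side, 3 genes rose and 8 fell, 29.7% against 18.8% of all tested genes, of which 9.76% rose and 9.07% fell. At an unadjusted p under 0.05 there were 19, beside 31.7% of all tested genes. This average shares its libraries with the separate comparisons. Phkb and Pygm were the genes it added. Phkb, the beta subunit of phosphorylase kinase, had a log2 fold change of -0.14 (SE 0.0428, edgeR adjusted p = 0.0228), and Pygm one of -0.14 (SE 0.0451, edgeR adjusted p = 0.0304). The call of Phkb was lost without a filter on low counts (edgeR adjusted p = 0.0931). Leaving out WT isoproterenol replicate 4 ended both calls, with adjusted p of 0.0511 for Phkb and 0.0692 for Pygm, and 6 other libraries each ended that of Pygm, with adjusted p of up to 0.0671.

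**Figure D2:**
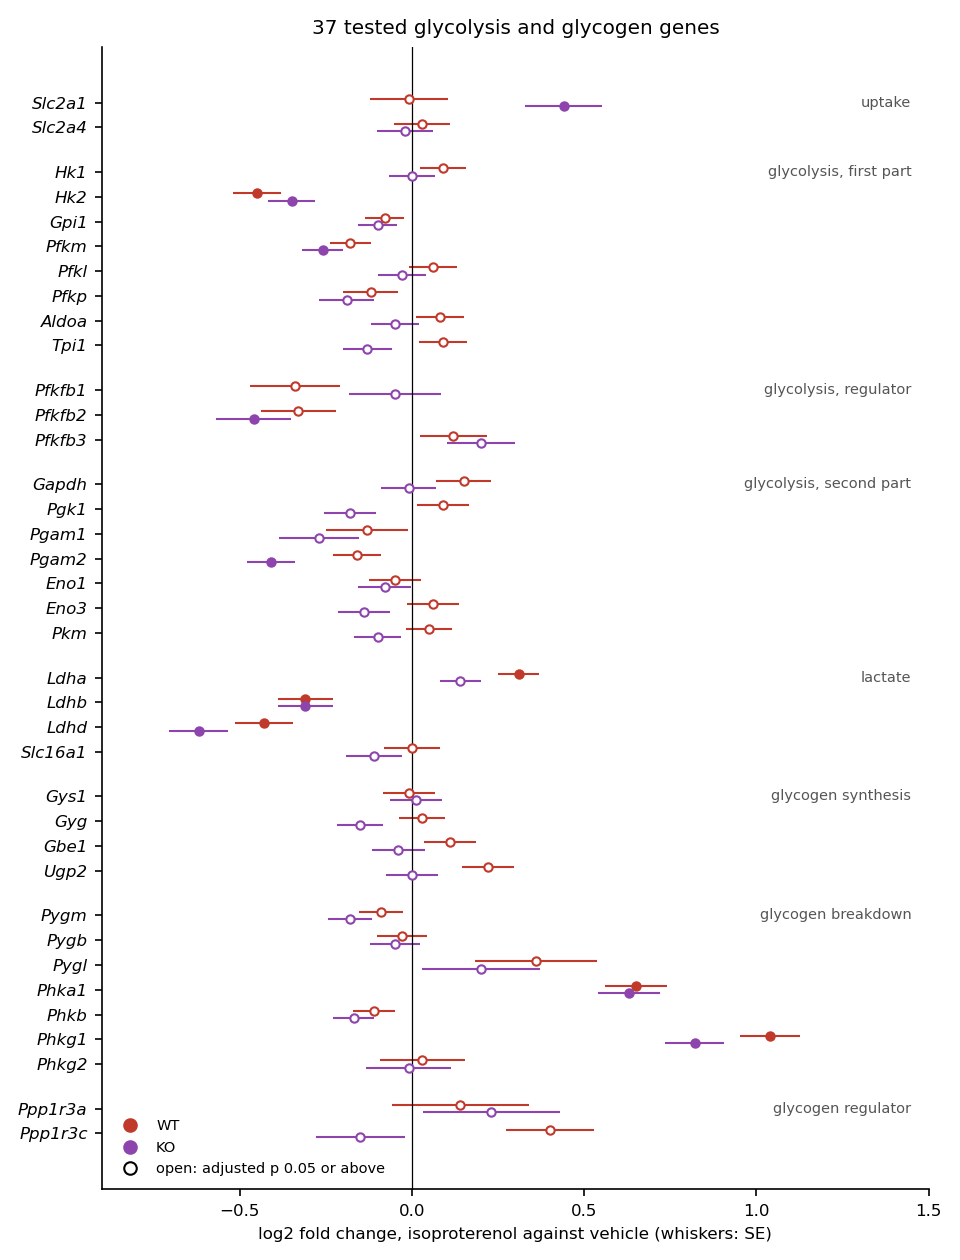
Log2 fold change of isoproterenol against vehicle for each of the 37 tested genes in WT (red) and KO (purple), ordered by step; whiskers are the SE and open points did not pass. Most points lie within 0.4 of 0, and Phkg1 and Phka1 stand to the right in both genotypes. Hk2, Ldhb, Ldhd and Pfkfb2 stand to the left, Pfkfb2 with an open point in WT.

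Of the 5 genes that passed in both genotypes, Ldhd is not shown here. Sequences upstream of the start site are shown for Phkg1 and Phka1, which rose in both genotypes, and for Hk2 and Ldhb, which fell in both. Each is the 250 bases before the RefSeq start site on GRCm38.p6, read 5′ to 3′ on the strand of the gene, which is the minus strand for all 4: chr5:129879089-129879338 for Phkg1, chrX:102644247-102644496 for Phka1, chr6:82774455-82774704 for Hk2 and chr6:142507958-142508207 for Ldhb. Capitals mark matches to the motifs named in the next paragraph.
Phkg1: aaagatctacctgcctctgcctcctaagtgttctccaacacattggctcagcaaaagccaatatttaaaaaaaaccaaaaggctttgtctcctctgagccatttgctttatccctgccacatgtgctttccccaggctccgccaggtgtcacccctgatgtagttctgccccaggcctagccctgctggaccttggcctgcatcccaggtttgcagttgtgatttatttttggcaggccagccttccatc
Phka1: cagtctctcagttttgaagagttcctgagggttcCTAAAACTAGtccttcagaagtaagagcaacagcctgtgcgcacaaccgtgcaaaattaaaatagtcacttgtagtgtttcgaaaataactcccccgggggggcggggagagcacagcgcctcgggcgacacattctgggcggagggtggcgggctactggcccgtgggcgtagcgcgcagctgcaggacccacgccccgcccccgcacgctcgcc
Hk2: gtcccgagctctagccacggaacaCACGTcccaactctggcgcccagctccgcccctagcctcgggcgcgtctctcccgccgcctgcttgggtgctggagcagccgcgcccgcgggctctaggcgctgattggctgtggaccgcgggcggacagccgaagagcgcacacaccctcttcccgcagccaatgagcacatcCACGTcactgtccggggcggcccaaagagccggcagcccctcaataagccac
Ldhb: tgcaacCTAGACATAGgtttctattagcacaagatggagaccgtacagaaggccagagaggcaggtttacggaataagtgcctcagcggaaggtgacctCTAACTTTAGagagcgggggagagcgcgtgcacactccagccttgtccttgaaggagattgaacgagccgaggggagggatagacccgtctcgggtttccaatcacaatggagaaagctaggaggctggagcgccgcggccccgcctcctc

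The motifs were 5, searched on both strands from 250 bases before to 50 bases after each start site. They included ACGTG, the core of the hypoxia response element, and CACGTG, the E-box, which holds ACGTG within it. TGACGTCA is the cyclic AMP response element, and AAGGTCA is bound by estrogen-related receptors. The last was a MEF2-like pattern, CTA and TAG with 4 bases of any kind between them. It is looser than the MEF2 site itself, so a match need not be such a site. RefSeq windows were found for 37 of the 38 genes, all but Slc2a4. ACGTG was in a window of 21 of the 37 genes, 56.8%, against 21.8% of all genes with windows, and CACGTG in 8, 21.6% against 8.09%. The 37 genes have more windows each, 55 in all, than the 27025 genes with 32851 windows, which raises a share per gene. Per window, ACGTG was in 25 of 55, 45.5% against 19.6% of all windows, and CACGTG in 8 of 55, 14.5% against 7.15%. These shares set the pathway against all genes with windows, expressed in the heart or not, and no share among tested genes was computed. Matches to the other motifs were in 3 genes or fewer. Counted from the start site, Hk2 carried ACGTG on the reverse strand at positions -226 and -52. Ldhd, which also fell in both genotypes, carried CACGTG at -139. Phka1 carried the MEF2-like pattern at -216, and Ldhb at -244 and -151. That pattern was in 3 of the 37 genes, 8.11% against 4.23% of all genes. The Phkg1 window held none of the 5 motifs. TGACGTCA was in the window of 1 of the 37 genes, Ldha. A match here is a run of letters and no measured binding.

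Glucose enters the cardiomyocyte through the transporters Slc2a4 (GLUT4), which insulin moves to the membrane, and Slc2a1 (GLUT1), which sits there at rest. Slc2a4 made up 92.7% to 96.2% of the pair per exon length in the 20 libraries. Its log2 fold change after isoproterenol was 0.03 (SE 0.0815) in WT and -0.02 (SE 0.0815) in KO, and neither passed.

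Slc2a1 (ENSMUSG00000028645; GRCm38 chr4:119108711-119137983, plus strand) rose in KO hearts. It measured 10.4, 9.54, 7.03, 7.28 and 8.13 CPM in the KO vehicle libraries and 9.38, 12, 12.9, 12.2 and 11.2 CPM in the KO isoproterenol libraries. The lowest isoproterenol library lay below the 2 highest vehicle libraries, so that the groups overlapped. The log2 fold change in KO was 0.44 (SE 0.112, edgeR adjusted p = 0.0123). In WT the values were 9.84, 7.69, 10.1, 8.44 and 10.4 CPM under vehicle and 8.78, 10.1, 8.01, 10.4 and 8.73 CPM under isoproterenol, ranges that lay over each other. The log2 fold change in WT was -0.01 (SE 0.113, edgeR adjusted p = 0.962), and its sign turned when 1 of 6 WT libraries was left out. The difference between the responses, 0.45 (SE 0.159, edgeR adjusted p = 0.518), did not pass.

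In the first part of glycolysis, from glucose to triose phosphates, 1 of 8 tested genes fell in WT and 2 fell in KO, and none rose. Hexokinase 2 (Hk2; ENSMUSG00000000628; GRCm38 chr6:82725025-82774454, minus strand), the insulin-responsive enzyme that traps glucose as glucose 6-phosphate, fell in both genotypes. It measured 148, 182, 145, 166 and 140.2 CPM in WT vehicle and 115, 121, 113, 109.7 and 111 CPM in WT isoproterenol libraries. In KO it measured 154, 139.7, 131, 143 and 139 CPM under vehicle and 109.8, 113, 116, 117 and 97.2 CPM under isoproterenol. In both genotypes every isoproterenol library lay below every vehicle library, which 3.75% of all tested genes did in WT and 4.31% in KO. Hk2 fell by 0.45 on the log2 scale in WT (SE 0.0686, edgeR adjusted p = 5.56e-05) and by 0.35 in KO (SE 0.0686, edgeR adjusted p = 0.00103).

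Hk1, the hexokinase of most tissues, had log2 fold changes of 0.09 (SE 0.0662) in WT and 0 (SE 0.0662) in KO and did not pass. Per exon length, Hk2 made up 64.5% ± 2.06 (SD, n = 5) of Hk1 plus Hk2 in WT vehicle and 55.7% ± 1.92 in WT isoproterenol hearts, with 62.5% ± 2.38 and 56.6% ± 1.88 in the corresponding KO groups. The lowest vehicle library, at 59.9%, was above the highest isoproterenol library, at 58.3%.

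Phosphofructokinase commits the sugar to glycolysis, and Pfkm (ENSMUSG00000033065; GRCm38 chr15:98092589-98132451, plus strand), the muscle subunit, fell in KO. The KO vehicle libraries measured 317, 334, 347, 331 and 302 CPM and the KO isoproterenol libraries 266, 274, 297, 280.3 and 241 CPM. These groups did not overlap. Pfkm fell by 0.26 on the log2 scale in KO (SE 0.0593, edgeR adjusted p = 0.00425). In WT it measured 325, 344, 356, 351 and 352 CPM under vehicle and 302, 297, 302, 293 and 333 CPM under isoproterenol, where 1 library, replicate 5, stood above the others and reached into the vehicle range. The log2 fold change in WT was -0.18 (SE 0.0593, edgeR adjusted p = 0.0568), short of the threshold in this fit and past it in 8 of 30 alternatives. The liver subunit Pfkl and the platelet subunit Pfkp did not pass in either genotype. Pitrm1 overlaps Pfkp on the other strand. The log2 fold change of Pitrm1 was -0.14 in WT (edgeR adjusted p = 0.138) and -0.26 in KO (edgeR adjusted p = 0.00656). Pfkm made up 86.3% to 89.4% of the 3 subunits per exon length in all 20 libraries.

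The PFKFB enzymes set the level of fructose 2,6-bisphosphate, the strongest activator of phosphofructokinase, and Pfkfb2 (ENSMUSG00000026409; GRCm38 chr1:130689182-130729253, minus strand) is their heart form. It measured 20.6, 19.8, 20.3, 26.1 and 27.7 CPM in KO vehicle and 14.7, 13.1, 17.8, 19 and 18.6 CPM in KO isoproterenol libraries, and 21.9, 20.5, 25.5, 24.6 and 21 and 19.9, 18.8, 15.2, 19.3 and 16.8 CPM in the corresponding WT groups. All isoproterenol libraries lay below all vehicle libraries of the same genotype. Pfkfb2 fell by 0.46 on the log2 scale in KO (SE 0.109, edgeR adjusted p = 0.00785), while the WT value of -0.33 (SE 0.109, edgeR adjusted p = 0.0539) did not pass, though it did in 10 of 30 alternatives. The inducible form Pfkfb3 had log2 fold changes of 0.12 (SE 0.0984) in WT and 0.20 (SE 0.0983) in KO, and Pfkfb1, the form of liver and muscle, of -0.34 (SE 0.132) and -0.05 (SE 0.134), and none of these passed.

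Between the hexose phosphates and triose phosphates, Gpi1, Aldoa and Tpi1 did not pass in either genotype, with log2 fold changes from -0.13 to 0.09. In the second part, from triose phosphate to pyruvate, none of the 7 tested genes passed in WT and 1 fell in KO. Pgam2 (ENSMUSG00000020475; GRCm38 chr11:5801640-5803733, minus strand), which moves the phosphate group of phosphoglycerate, was that gene. It measured 181, 209.6, 205, 211 and 188 CPM in KO vehicle and 149, 159, 152, 157 and 129.9 CPM in KO isoproterenol libraries, with no overlap. In WT the values were 182, 156, 187, 179 and 198 CPM and 149, 162, 162, 155 and 180.2 CPM, and the groups overlapped. Pgam2 fell by 0.41 on the log2 scale in KO (SE 0.0697, edgeR adjusted p = 0.000206). The WT value of -0.16 (SE 0.0696, edgeR adjusted p = 0.163) did not pass, and it was -0.21 (edgeR adjusted p = 0.0181) when WT vehicle replicate 2 and KO isoproterenol replicate 5 were left out. The difference between the responses was -0.26 (SE 0.0985, edgeR adjusted p = 0.524).

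Gapdh, Pgk1, Pgam1, Eno1, Eno3 and Pkm had log2 fold changes from -0.13 to 0.15 in WT and from -0.27 to -0.01 in KO, and none passed. Gapdh, often taken as a reference gene, measured 264 to 352 CPM in WT vehicle and 320.1 to 379.7 CPM in WT isoproterenol libraries. Iffo1 overlaps Gapdh on the other strand. The log2 fold change of Iffo1 was 0.24 in WT (edgeR adjusted p = 0.172) and 0.57 in KO (edgeR adjusted p = 0.000649). Reads of Aldoa, Gapdh, Pgk1, Pgam1, Eno1, Ldha and Ldhb can also match named copies of these genes elsewhere in the genome, and how the authors counted such reads is not given in the sources used here, so that their values are uncertain.

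**Figure D3:**
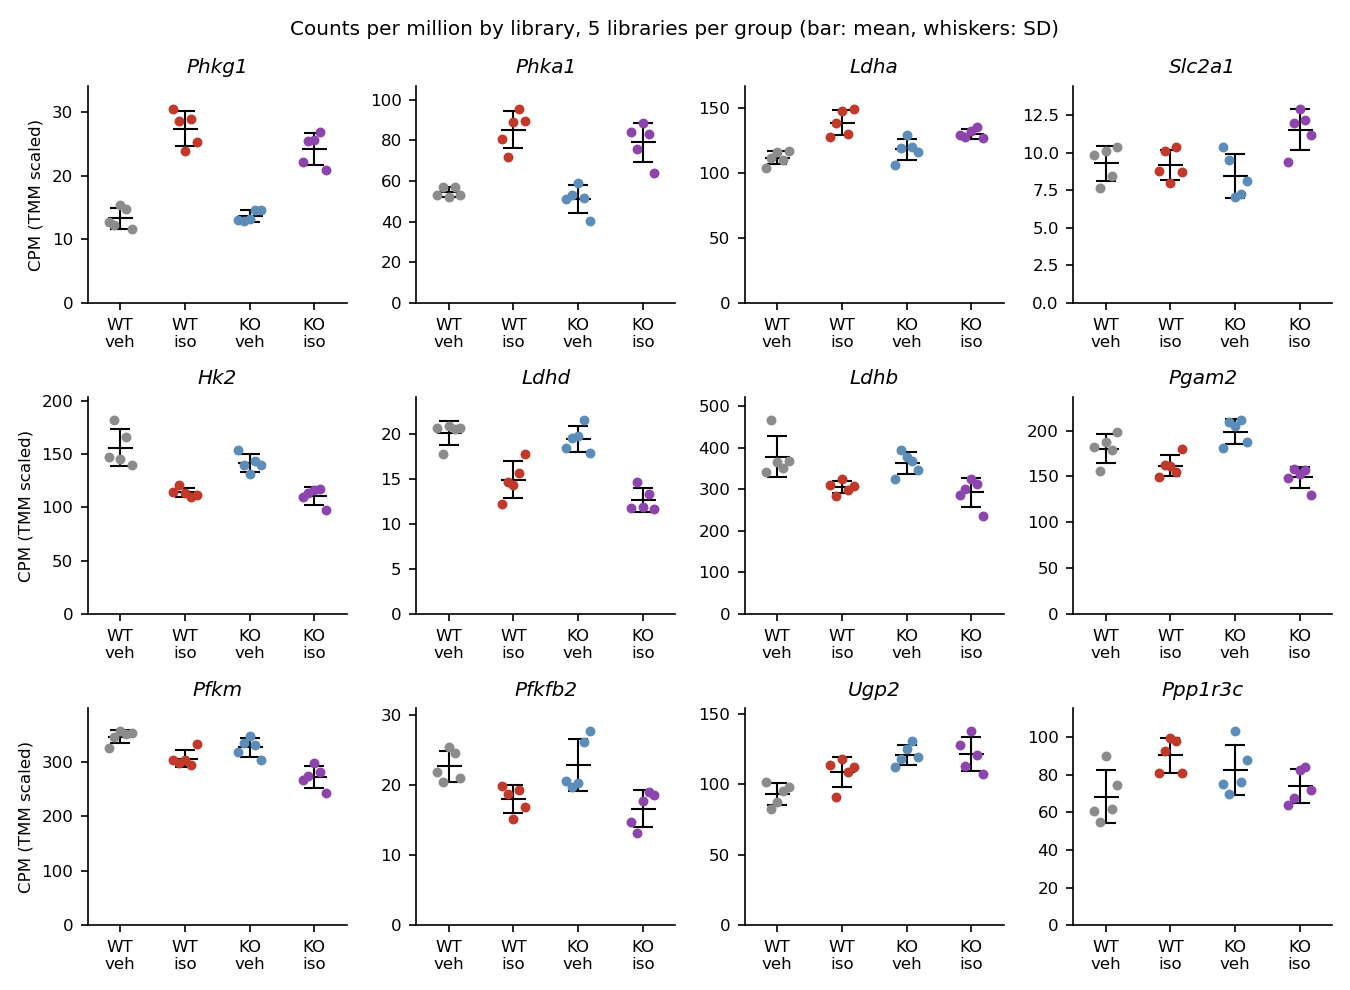
CPM in each library of 12 genes in the 4 groups, 5 libraries each; bars are means and whiskers the SD. Phkg1 and Phka1 rise after isoproterenol in both genotypes without overlap, while Hk2, Ldhb and Pfkfb2 lie lower without overlap, although Pfkfb2 did not pass in WT.

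Of the 4 lactate genes, Ldha rose and Ldhb and Ldhd fell in WT, Ldhb and Ldhd fell in KO, and Slc16a1 passed in neither. Lactate dehydrogenase is a tetramer of muscle (Ldha) and heart (Ldhb) subunits, and the form rich in Ldhb is the one suited to oxidising lactate. Ldha (ENSMUSG00000063229; GRCm38 chr7:46841475-46855627, plus strand) measured 104, 112, 116, 110.2 and 117 CPM in WT vehicle and 128, 138, 147, 130.1 and 149 CPM in WT isoproterenol libraries, all of which lay above the vehicle libraries. Ldha rose by 0.31 on the log2 scale in WT (SE 0.0597, edgeR adjusted p = 0.00105). In KO it measured 106, 119, 129, 119.8 and 116 CPM under vehicle and 129, 127, 132, 136 and 127 CPM under isoproterenol, where the highest vehicle library overlapped the isoproterenol range. The KO value of 0.14 (SE 0.0596, edgeR adjusted p = 0.143) did not pass, and neither did the difference between the responses, -0.17 (SE 0.0843, edgeR adjusted p = 0.661).

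Ldhb (ENSMUSG00000030246; GRCm38 chr6:142490249-142507957, minus strand) measured 343, 467, 366, 353 and 368 CPM in WT vehicle libraries, where replicate 2 stood far above the rest, and 310.5, 285, 325, 299 and 308 CPM in WT isoproterenol libraries. The KO values were 326, 394, 379, 369 and 347 CPM and 287, 302, 325, 314 and 237 CPM. The isoproterenol libraries lay below the vehicle libraries in both genotypes, in KO by less than 1 CPM between the nearest libraries. Ldhb fell by 0.31 on the log2 scale in WT (SE 0.0807, edgeR adjusted p = 0.0135) and by 0.31 in KO (SE 0.0807, edgeR adjusted p = 0.0135). Without WT vehicle replicate 2 the WT value was -0.23 and no longer passed (edgeR adjusted p = 0.0581), and with 2 surrogate variables it was -0.19 (edgeR adjusted p = 0.0481).

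The share of Ldha in Ldha plus Ldhb, per exon length, was 12.4% ± 1.23 (SD, n = 5) in WT vehicle, 17.7% ± 1.03 in WT isoproterenol, 13.4% ± 0.507 in KO vehicle and 17.5% ± 1.6 in KO isoproterenol hearts. Every isoproterenol library, at 16.1% or more, lay above every vehicle library, at 13.9% or less. The heart form was the main transcript in all 20 libraries, at 79.8% to 89.8%.

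**Figure D4:**
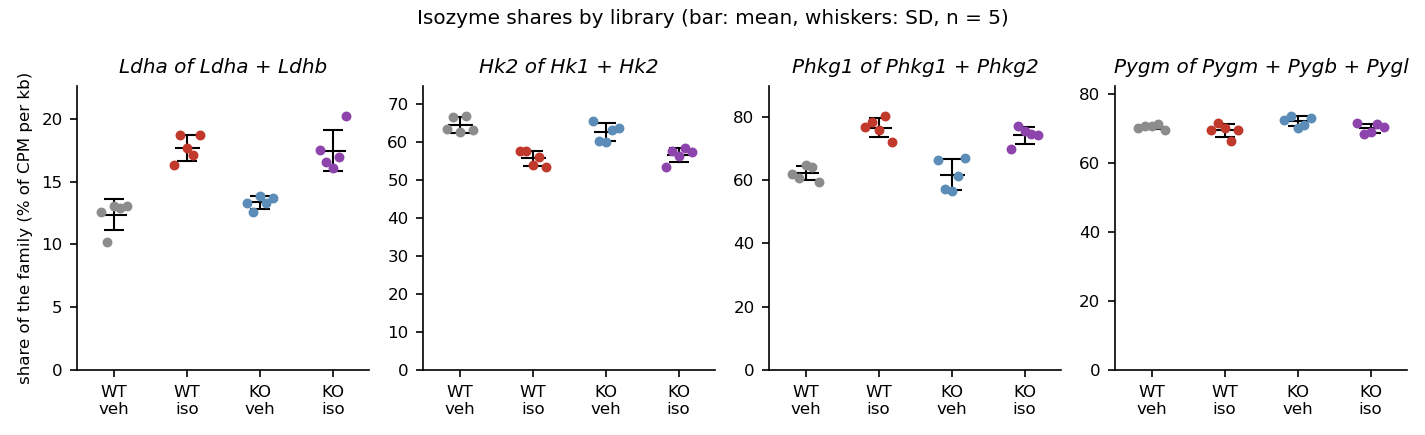
Share of 1 gene in its family, in percent of the family's summed CPM per kb, in each library; bars are means and whiskers the SD of 5 libraries. The shares of Ldha and Phkg1 are higher and that of Hk2 is lower after isoproterenol in both genotypes, while that of Pygm lies between 66.2% and 73.4% in all 20 libraries.

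Ldhd (ENSMUSG00000031958; GRCm38 chr8:111623785-111630374, minus strand), a mitochondrial enzyme that oxidises D-lactate, measured 20.6, 17.7, 20.9, 20.5 and 20.6 CPM in WT vehicle and 12.2, 14.6, 14.3, 15.6 and 17.8 CPM in WT isoproterenol libraries, and the groups overlapped by 1 library on each side, at 17.7 and 17.8 CPM. In KO it measured 18.4, 19.5, 19.8, 21.5 and 17.9 CPM and 11.8, 14.7, 11.9, 13.3 and 11.6 CPM, with no overlap. Ldhd fell by 0.43 on the log2 scale in WT (SE 0.0852, edgeR adjusted p = 0.00119) and by 0.62 in KO (SE 0.0864, edgeR adjusted p = 2.18e-05). Znrf1 overlaps Ldhd on the other strand, and its log2 fold changes were 0.08 and 0.03. Slc16a1 (MCT1), which carries lactate across the membrane, had log2 fold changes of 0 (SE 0.0815) in WT and -0.11 (SE 0.0815) in KO and did not pass.

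Among the genes of glycogen synthesis none passed after isoproterenol. Gys1, the muscle glycogen synthase, had log2 fold changes of -0.01 (SE 0.0756) in WT and 0.01 (SE 0.0756) in KO. Ruvbl2 overlaps Gys1 on the other strand and had -0.26 averaged over both genotypes (edgeR adjusted p = 0.00928). Gyg, which primes the chain, and Gbe1, which branches it, lay between -0.15 and 0.11. Ugp2 (ENSMUSG00000001891; GRCm38 chr11:21321138-21371201, minus strand), which makes the UDP-glucose that glycogen synthase uses, had 0.22 (SE 0.0753, edgeR adjusted p = 0.0594) in WT and 0 (SE 0.075, edgeR adjusted p = 0.983) in KO.

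In glycogen breakdown, 2 of 7 tested genes rose in each genotype and none fell, and both encode subunits of phosphorylase kinase. This enzyme is built of alpha, beta, gamma and delta subunits. Gamma is the catalytic one, alpha and beta carry the sites that protein kinase A phosphorylates, and delta is calmodulin. Phkg1 (ENSMUSG00000025537; GRCm38 chr5:129863421-129898549, minus strand) is the muscle gamma subunit and ranked 6 of all tested genes by p in WT and 17 in KO. It measured 12.7, 12.2, 15.3, 14.8 and 11.6 CPM in WT vehicle and 30.4, 28.6, 23.9, 28.8 and 25.2 CPM in WT isoproterenol libraries. In KO the values were 13, 12.8, 13.2, 14.6 and 14.6 CPM and 22.2, 25.4, 25.5, 26.9 and 20.8 CPM. In both genotypes all isoproterenol libraries lay well above all vehicle libraries, a separation upwards that 4.29% of tested genes had in WT and 3.75% in KO. Phkg1 rose by 1.04 on the log2 scale in WT (SE 0.0869, edgeR adjusted p = 2.01e-09) and by 0.82 in KO (SE 0.0865, edgeR adjusted p = 1.9e-07). The annotated span of Phkg1 also holds Chchd2 on the same strand, whose log2 fold changes of -0.08 and -0.17 did not pass.

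Phka1 (ENSMUSG00000034055; GRCm38 chrX:102513975-102644246, minus strand), the muscle alpha subunit, measured 53, 57.1, 52.1, 57 and 52.9 CPM in WT vehicle and 80.6, 71.7, 89.1, 95.3 and 89.6 CPM in WT isoproterenol libraries. The KO libraries measured 51.3, 53, 59.2, 51.7 and 40.3 CPM under vehicle and 83.9, 75.6, 88.3, 83.2 and 63.9 CPM under isoproterenol. The lowest library of each KO group was numbered 5, a number that links no libraries across groups. The groups did not overlap in either genotype. Phka1 rose by 0.65 on the log2 scale in WT (SE 0.0903, edgeR adjusted p = 2.49e-05) and by 0.63 in KO (SE 0.0903, edgeR adjusted p = 4.06e-05). Phkg1, Phka1, Hk2 and Ldhd kept their calls in both genotypes in all 30 alternatives.

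The other subunit genes moved less or not detectably. Phkg2, the liver gamma subunit, had log2 fold changes of 0.03 (SE 0.124) and -0.01 (SE 0.123), and the share of Phkg1 in both gamma subunits per exon length went from 62.2% ± 2.25 to 76.6% ± 3.01 (SD, n = 5) in WT and from 61.7% ± 4.84 to 74.2% ± 2.68 in KO. Phkb had -0.11 (SE 0.0607) and -0.17 (SE 0.0602) and passed in neither genotype alone. Phka2, the liver alpha subunit, had -0.09 (SE 0.075) and 0.05 (SE 0.075) and did not pass. Among genes for calmodulin, Calm2 rose by 0.41 (SE 0.0682, edgeR adjusted p = 0.000199) in WT and 0.26 (SE 0.0678, edgeR adjusted p = 0.0118) in KO. Calm3 rose by 0.29 (SE 0.0672, edgeR adjusted p = 0.00543) and 0.23 (SE 0.0672, edgeR adjusted p = 0.0241), but the KO call of Calm3 was lost when any 1 of 5 KO libraries was left out, vehicle replicate 1, 4 or 5 or isoproterenol replicate 1 or 4 (edgeR adjusted p = 0.0534 to 0.075). Calmodulin serves many other enzymes.

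**Figure D5:**
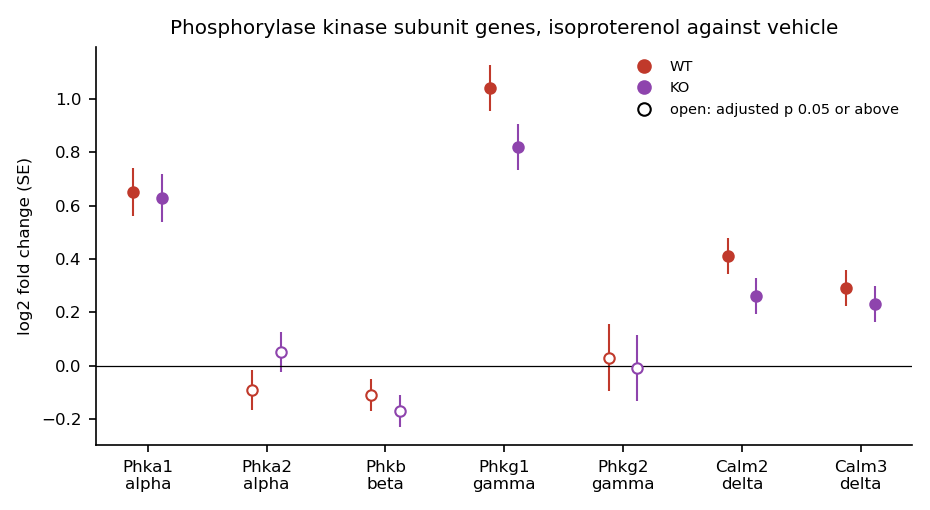
Log2 fold change of isoproterenol against vehicle for the genes of the phosphorylase kinase subunits in WT (red) and KO (purple); whiskers are the SE and open points did not pass. Phkg1, at 1.04 and 0.82, and Phka1, at 0.65 and 0.63, lie highest, and Phkg2, Phka2 and Phkb lie close to 0.

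Of the phosphorylases, Pygm measured 479 to 578 CPM in WT vehicle and 466 to 545 CPM in WT isoproterenol libraries, and 520.5 to 576 CPM and 418 to 506 CPM in the KO groups. The KO groups did not overlap and the WT groups did. Its log2 fold changes of -0.09 (SE 0.0637) in WT and -0.18 (SE 0.0638, edgeR adjusted p = 0.0666) in KO did not pass. Pygb, the brain form, and Pygl did not pass either. Pygm made up 66.2% to 73.4% of the 3 phosphorylases per exon length over all libraries.

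Ppp1r3a and Ppp1r3c carry protein phosphatase 1 to glycogen, where it turns glycogen synthase on and phosphorylase off. Ppp1r3c measured 61, 54.9, 90, 61.8 and 74.5 CPM in WT vehicle and 80.8, 93, 99.8, 98 and 80.8 CPM in WT isoproterenol libraries. The isoproterenol libraries lay at or above 80.8 CPM and 1 vehicle library, replicate 3 at 90 CPM, reached into their range. In KO it measured 75.3, 69.6, 103, 76.4 and 88.2 CPM and 64, 67.5, 82.6, 84.4 and 72.1 CPM. The log2 fold change was 0.40 (SE 0.128, edgeR adjusted p = 0.0553) in WT and -0.15 (SE 0.128, edgeR adjusted p = 0.519) in KO. The WT value passed in 5 of 30 alternatives, DESeq2 (adjusted p = 0.0198) among them. Over the 30 it ranged from 0.24 to 0.52, with adjusted p of up to 0.352. Without WT vehicle replicate 3 the WT value was 0.52 (edgeR adjusted p = 0.00607). Ppp1r3a ran from 129 to 290.4 CPM within the KO isoproterenol group and did not pass in either genotype.

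The marker genes of other cell types also moved after isoproterenol. Of 8 fibroblast markers, 4 rose in WT and 3 in KO, and their summed level went from 974 to 1112 CPM up to 1180.0 to 1304 CPM in WT and from 1094 to 1276 CPM up to 1308 to 1928 CPM in KO. Of 14 macrophage markers, 6 rose in WT and 4 in KO, with sums of 173 to 207 CPM and 197 to 313 CPM in WT and of 203 to 212 CPM and 232 to 265 CPM in KO. The 7 cardiomyocyte markers summed to 27575 to 33332 CPM in WT vehicle and 23568 to 25878 CPM in WT isoproterenol, and to 25818 to 28138 CPM and 19407 to 25767 CPM in KO, with 2 that fell in WT and 1 in KO. The part of these shifts in the levels of the glycolysis and glycogen genes was not tested, and fewer cells of a type cannot be told apart from less RNA per cell. Of 10 endothelial markers 3 rose in WT and 1 fell in KO, and of 9 smooth muscle and pericyte markers 2 rose in each genotype. Of 7 erythroid and platelet markers 1 rose in WT and none passed in KO. The median log2 fold change of these 7 was -0.45 in WT and 0.37 in KO. None of 5 adipocyte markers passed. The 3 tested skeletal muscle markers were Tnnt3, Tnni2 and Ckm, and none passed. Their sum was 616 to 878 CPM in WT vehicle and 681 to 871 CPM in WT isoproterenol libraries. In KO it was 684 to 851 CPM under vehicle and 543 to 746 CPM under isoproterenol. This sum cannot be taken as skeletal muscle RNA, since Myh1, Myh2, Myh4, Mylpf and Atp2a1 fell below the filter. Without KO isoproterenol replicate 5 and WT vehicle replicate 2, 3 genes of the pathway rose and 7 fell in KO, with Phkg1 at 0.87 and Phka1 at 0.70. The share of all tested genes called in that fit was not computed.

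Between the genotypes under vehicle, 1 of the 37 genes was higher in KO and none was lower, 2.7% against 0.128% of all tested genes, of which 0.0605% were higher and 0.0672% lower. At an unadjusted p under 0.05 there were 7, beside 8.31% of all tested genes. The gene that passed was Ugp2. It measured 102, 82.4, 87.3, 95.5 and 98.1 CPM in WT vehicle and 112, 118, 125, 131 and 119.6 CPM in KO vehicle libraries. Every KO library lay above every WT library, as 0.995% of all tested genes did. Ugp2 was higher in KO by 0.38 on the log2 scale (SE 0.0752, edgeR adjusted p = 0.0282). The call did not hold without WT vehicle replicate 2, 3 or 4 or KO vehicle replicate 3, 4 or 5, with log2 values of 0.34 to 0.39 and adjusted p of 0.0602 to 0.132. Under isoproterenol the values were 114, 90.6, 118, 109 and 112 CPM in WT and 128, 113, 138, 121 and 107 CPM in KO, ranges that overlapped, and the genotype difference was 0.16 (SE 0.0751, edgeR adjusted p = 0.365).

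The next genes by p under vehicle were Pfkp at 0.24 (SE 0.0789, edgeR adjusted p = 0.284), Pfkfb1 at -0.37 (SE 0.131, edgeR adjusted p = 0.363) and Pygl at 0.40 (SE 0.177, edgeR adjusted p = 0.544), and none of them passed. Pfkp measured 39.3, 34.7, 37.4, 38.8 and 40.4 CPM in WT vehicle and 45.3, 42.8, 47.3, 44.2 and 46.1 CPM in KO vehicle libraries, and the groups did not overlap.

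Under isoproterenol no gene of the 37 differed between the genotypes in edgeR, DESeq2 or limma-voom, beside 0.181% of all tested genes in edgeR, with 0.0538% higher and 0.128% lower in KO. For none of the 37 were the groups free of overlap, which 1.01% of all tested genes were with KO above WT and 1.13% with KO below WT. At an unadjusted p under 0.05 there were 9, beside 13% of all tested genes. The nearest to passing were Pfkm at -0.17 (SE 0.0593, edgeR adjusted p = 0.235), Slc2a1 at 0.31 (SE 0.112, edgeR adjusted p = 0.245) and Ldhd at -0.24 (SE 0.088, edgeR adjusted p = 0.257).

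The difference between the isoproterenol responses of KO and WT passed for none of the 37 genes in edgeR, DESeq2 or limma-voom, and for 0% of all tested genes in edgeR. At an unadjusted p under 0.05 there were 6, beside 7.68% of all tested genes. The nearest to passing was Ppp1r3c at -0.56 (SE 0.181, edgeR adjusted p = 0.518), followed by Slc2a1 and Pgam2 with the values given above. Of the 37 differences, 30 were negative and 7 positive, with a median of -0.09 beside 0 over all tested genes, and without KO isoproterenol replicate 5 and WT vehicle replicate 2 the median was -0.05. The share of negative differences over all tested genes was not computed. Many of the 37 genes were lowest or highest in the same libraries, as given above, so their signs are not separate observations.

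Other genes of glucose and glycogen metabolism, 74 in a list and 68 of them tested, moved as follows. After isoproterenol 4 rose and 4 fell in WT, 11.8% of the list against 8.76% of all tested genes, and 4 rose and 12 fell in KO, 23.5% against 9.03%, with median log2 fold changes of -0.04 and -0.08. Those that rose in both genotypes were Calm2, Calm3, whose KO call depends on single libraries as given above, and Slc16a7 (MCT2), a lactate and pyruvate carrier of high affinity, at 0.75 (SE 0.118, edgeR adjusted p = 9.03e-05) in WT and 0.76 (SE 0.118, edgeR adjusted p = 6.91e-05) in KO. Slc16a3 (MCT4), the carrier of lactate-exporting cells, rose by 0.84 in WT (SE 0.27, edgeR adjusted p = 0.0488), but 17 of 30 alternatives ended this call, leaving out WT isoproterenol replicate 3 among them (0.71, adjusted p = 0.144). Pdk3 rose by 0.58 in KO (SE 0.185, edgeR adjusted p = 0.0469), a call lost in 19 of 30 alternatives; it had 0.31 (edgeR adjusted p = 0.277) once WT vehicle replicate 2 and KO isoproterenol replicate 5 were left out.

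Genes of this list that fell in both genotypes included Fbp2, the muscle fructose bisphosphatase, by 0.85 on the log2 scale in WT and 0.52 in KO, and Pdp2, a phosphatase that activates pyruvate dehydrogenase, by 0.65 and 0.43. Pdk2, a kinase that inactivates pyruvate dehydrogenase, fell by 0.42 in WT (SE 0.0824, edgeR adjusted p = 0.00115) and had -0.16 (SE 0.0823, edgeR adjusted p = 0.236) in KO. Genes that fell in KO and did not pass in WT included Pgm1, Bsg, Irs1, Pdha1, Pdhb, Gpd1l and Tigar. Pgm1, which links glucose 1-phosphate and glucose 6-phosphate, fell by 0.35 in KO (SE 0.0775, edgeR adjusted p = 0.00346). Pgm1 and Bsg kept their KO calls in all 30 alternatives. The KO call of Gpd1l was lost in 8 of them (edgeR adjusted p up to 0.119), that of Tigar in 7 (up to 0.122), that of Irs1 in 6 (up to 0.112), that of Pdhb in 3 (up to 0.0567) and that of Pdha1 without KO vehicle replicate 3 (0.0554). For these 5 genes most of the losses came from leaving out 1 KO library, any 1 of KO vehicle replicates 2 to 5 or isoproterenol replicates 1 to 5. Between the genotypes, and for the difference between the responses, none of the 68 passed in edgeR.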

How the data were processed

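Stranded libraries of total RNA from 20 heart samples were sequenced, as the labels' protocols describe, and the authors deposited raw counts per gene. HISAT2 2.1.0, featureCounts 1.6.3, GRCm38, R 3.6.0 and limma 3.40.6 are named by the submitters' processing notes. Which annotation release and strand option were used, and how reads with several matches were counted, is not given in the sources used here, so that overlapping genes and near-identical copies may share reads. Groups come from the labels, which name no batch and no pairing, and 0 columns lacked a sample. Of the 55335 identifiers, 55154 were found in GENCODE vM21, 54587 with the same version, and where 2 carried the symbol Aldoa the one with the most counts was used. Levels per kb use merged exon lengths from that annotation.

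The deposited counts were fitted by edgeR 4.0.16 under R 4.3.3 (filterByExpr, TMM scaling, robust quasi-likelihood fit of all 20 libraries with a mean per group, 16 residual degrees of freedom, common biological coefficient of variation 0.119). P-values were adjusted by Benjamini-Hochberg over all 14878 tested genes in each of 6 comparisons, and a gene passed under 0.05. The script was tested on simulated data. The lowest chi-square per degree of freedom between 2 libraries of a group was 3.79, above the 1 that sampling noise gives. It was 55.7 to 64.6 in pairs with WT vehicle replicate 2 and 19.4 to 36.6 in pairs with KO isoproterenol replicate 5. In the other pairs it was at most 19.1. Named were, per comparison, every gene of the pathway that passed and up to 3 that came nearest, both isoproterenol comparisons side by side, and related genes that passed after isoproterenol. The remaining genes of each step are named for completeness, and some related genes that the lists count are not reported here. These genes, lists and rules were chosen with earlier results of these data known.

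Alternatives were DESeq2 1.42.0, limma-voom (limma 3.58.1), RLE and upper quartile scaling, other filters, leaving out mitochondrial genes, 2 surrogate variables (sva 3.50.0), a fit restricted to the compared groups, and each library left out in turn. Promoter sequences are from RefSeq on GRCm38.p6. Plots used matplotlib 3.10.9 (Python 3.11.15).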

Additional observations from a re-analysis of the deposited data

Results flagged for a closer look

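Within a group of 5 libraries, a value was picked out when its gap to the nearest other library exceeded 0.71 of the group's range, Dixon's critical value. Over 148 combinations of a gene and a group this picked out 10, and chance alone picks out about 1 in 20. WT vehicle replicate 2 held 3 of them: Aldoa at 889.5 CPM where the others lay at 1041 to 1099.7 CPM, Ldhb at 467 CPM against 343 to 368 CPM, and Ldhd at 17.7 CPM against 20.5 to 20.9 CPM. KO isoproterenol replicate 5 also held 3: Aldoa at 921 CPM against 1069 to 1117 CPM, Pkm at 465 CPM against 531 to 549.7 CPM, and Slc16a1 at 94.5 CPM against 122 to 127 CPM. WT isoproterenol replicate 5 held Pfkm at 333 CPM against 293 to 302 CPM and Pfkfb1 at 14.1 CPM against 8.65 to 10.1 CPM. Pfkl in WT isoproterenol replicate 4 measured 60.3 CPM against 70.6 to 74.6 CPM, and Pfkfb3 in KO isoproterenol replicate 2 measured 11.2 CPM against 9.13 to 9.68 CPM.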

How the results depend on the processing

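No paired analysis was possible because replicates were numbered by their place in the record list, which links no libraries across groups. The number of genes that fell after isoproterenol in WT, 3, became 5 with DESeq2, without a filter on low counts, with a CPM of at least 1 in 5 libraries and with only the groups compared, 6 with 2 surrogate variables, and 6 without KO isoproterenol replicate 5 and WT vehicle replicate 2, an alternative chosen after seeing the data. Leaving out 1 library gave 2 to 5. Averaged over the genotypes, the number that rose, 3, became 5 with 2 surrogate variables. Between the genotypes under vehicle, the number higher in KO, 1, ranged from 0 to 1 when 1 library was left out, and the number lower, 0, became 1 without the filter. For these alternatives the share of all tested genes called was not computed. The log2 fold change of Slc2a1 in WT, -0.01, ranged from -0.07 to 0.03 when 1 library was left out, with 6 of the WT libraries turning it to 0, 0.01, 0.02 or 0.03. That of Tigar in WT, -0.01, was 0.02 with 2 surrogate variables and 0 or 0.01 without replicate 4 of either WT group, and ranged from -0.03 to 0.01 when 1 library was left out. The cause of these shifts was not tested. Of the other values of single genes under the alternatives, 3468 kept their direction and side of the threshold, 157 lost a call and 102 gained one. A fit of only the groups compared was not made for the average or for the difference between responses. Depth left Aldoc, with 0 to 8 counts per library, untested.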
